A study of Mus musculus with 7 samples.

Results

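Phagocytosis checkpoints are surface receptors and ligands that restrain a myeloid cell from engulfing or attacking its neighbours. The genes described here are a list of names: the ligands Cd47, Cd24a and Cd200, the receptors Sirpa, Pirb, Lilrb4a and Cd200r1, and the phosphatases Ptpn6 and Ptpn11. All 9 genes were found among the 55491 gene rows of the UMI matrix, of which 31358 held a UMI (unique molecular identifier, 1 per captured transcript molecule). The cells came from mice bearing CT-2A, a mouse glioma line grown in the brain, and were frozen, thawed and sorted as live cells positive for CD45 and/or CD11b before droplet 5' single-cell RNA sequencing, with 1 library per mouse. The 4 mice of the knockout group (KO) were Sall1CreERT2 x Siglecefl/fl (alleles B6;129-Sall1<tm5(cre/ERT2)Ryn> and B6.129P2-Siglece<tm1Bcgen>), in which tamoxifen activates Cre in cells that use the Sall1 gene, among immune cells the microglia. The 3 mice of the control group (WT) were Siglecefl/fl with no Cre, so the driver allele and the deletion cannot be told apart. Both groups were engrafted at 8 to 12 weeks of age and received 2.5 mg tamoxifen per injection, daily from day 7 to day 21 after engraftment and every other day from then on. Siglece encodes Siglec-E, an inhibitory receptor for sialic acids.

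SIRPα, the product of Sirpa, is a myeloid receptor that binds CD47 on other cells, the best known "don't eat me" pair. CD200 on lymphoid, endothelial and neuronal cells binds CD200R1, and in healthy brain this pair is known for holding microglia at rest. PIR-B (Pirb) and gp49B (Lilrb4a) are mouse members of the leukocyte immunoglobulin-like receptor family, and CD24 (Cd24a) is a small glycosylated protein that some Siglec receptors bind. SIRPα, PIR-B, gp49B and Siglec-E carry immunoreceptor tyrosine-based inhibitory motifs (ITIMs) in their tails. Once phosphorylated by Src family kinases, these recruit the phosphatases SHP-1 (Ptpn6) and SHP-2 (Ptpn11), while CD200R1 signals through an NPXY motif and the Dok adaptors.

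The motifs that define these receptors are shown first, since they are what links the receptors to the phosphatases. The last 120 codons of the GENCODE M21 coding sequences (build GRCm38) were searched on the coding strand for the ITIM consensus: isoleucine, valine, leucine or serine, any residue, tyrosine, any 2 residues, then isoleucine, valine or leucine. Each line below reads 5' to 3' on the coding strand, and the capitals mark the tyrosine codon.
Sirpa, codon 440: atcacaTACgcagacctg
Sirpa, codon 481: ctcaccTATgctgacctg
Sirpa, codon 505: tcagagTATgctagtgtc
Pirb, codon 794: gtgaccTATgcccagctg
Pirb, codon 824: agtgtaTATgctactctg
Lilrb4a, codon 300: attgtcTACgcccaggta
Lilrb4a, codon 322: gtaaccTATgcccagttg
Siglece, codon 432: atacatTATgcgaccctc
Cd200r1, codon 297 (NPXY): aatccactcTAT

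Sirpa held 3 matches, Pirb and Lilrb4a 2 each and the targeted gene Siglece 1. Of 21479 genes searched in this way, 19.2% held at least 1 match, 4.49% at least 2 and 1.14% at least 3. Cd200r1 held no ITIM but 1 NPXY match (asparagine, proline, any residue, tyrosine), which 0.889% of genes held. Cd47, Cd24a and Cd200, the ligands, held neither motif, and Ptpn6 and Ptpn11 each held 1 ITIM match, at codons 538 and 551. A match is a description of letters and not evidence of a working site.

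In GENCODE M21 coordinates (GRCm38), Cd47 lies at chr16:49800533-49915010, Cd24a at chr10:43578284-43584265 and Cd200 at chr16:45382135-45409053. Sirpa lies at chr2:129592835-129632228, Pirb at chr7:3711409-3720391, Lilrb4a at chr10:51490956-51496611 and Cd200r1 at chr16:44765736-44794978. Ptpn6 lies at chr6:124720707-124738714 and Ptpn11 at chr5:121130533-121191397. Lilrb4a neighbours its paralogue Lilr4b (chr10:51480632-51486703), which held no ITIM match. A readthrough gene, Gm49339, overlaps both, and 66.1% of its 7810 UMIs stood in values that were not whole numbers. The antisense gene Gm40645 (413 UMIs) overlaps Lilrb4a. Cd200, Pirb, Ptpn6 and Ptpn11 are on the minus strand and the others on the plus strand. Lilr4b shared 16.5% of the 90-base stretches of Lilrb4a, and 51.7% of the Lilrb4a UMIs stood in values that were not whole numbers. For Pirb, which shared 14.9% of its 90-base stretches with Pira2, that part was 11.0%, for Cd24a it was 0.0222%, and for the other 6 genes it was 0. Lilrb4a, and to a lesser degree Pirb, are therefore uncertain where reads could be divided between copies.

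The deposited matrix held 28644 cells in 23 cell types named by the authors, with 1410 to 5856 cells and medians of 4479 to 9554 UMIs per cell in the 7 libraries. Of 28178 distinct barcodes, 460 occurred in more than 1 library. Siglece, the targeted gene, had 2, 1, 0 and 0 UMIs in the microglia of KO replicates 1 to 4 and 20, 19 and 7 in those of WT replicates 1 to 3, or 10.7, 19.6, 0 and 0 CPM against 36.1, 45.9 and 18.6 CPM, so that KO replicate 2, with 1 UMI, was above WT replicate 3. The names were checked against marker genes. Of 8 microglia markers 7 were highest in a microglia type, as were 4 of 4 plasmacytoid dendritic cell (pDC), 4 of 4 B cell, 4 of 4 NK cell and 5 of 5 T cell markers in theirs. The same held for 4 of 8 monocyte and macrophage markers, 3 of 4 cDC1 markers, 2 of 3 mo-DC and cDC2 markers and 4 of 5 tumour or stromal markers. The cells named cDC2 (conventional dendritic cells type 2) went against their label: Cd209a was at 0.0970 CPM and Clec10a at 2.91 CPM there, while Flt3 was at 252, and Ccr7 and Fscn1, markers of mature dendritic cells added after their values were seen, were at 3859 and 5134 CPM. These cells are called by the authors' name below. Microglia were few, 163 under the name Microglia and 251 under the name Microglia (Low-quality/activated), called low-quality microglia here, which had a median of 2222 UMIs and 4.77% mitochondrial UMIs against 6226 and 2.06%. Levels below are CPM, UMIs of a gene per 1000000 UMIs of a mouse's cells of 1 type, over mice with at least 20 such cells, and n is the number of mice. Since the names were made from the same cells, levels between cell types are a description and carry no test. A CPM value is a share of the RNA of those cells, so fewer cells with the transcript and less of it per cell cannot be told apart from it alone.

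**Figure D1:**
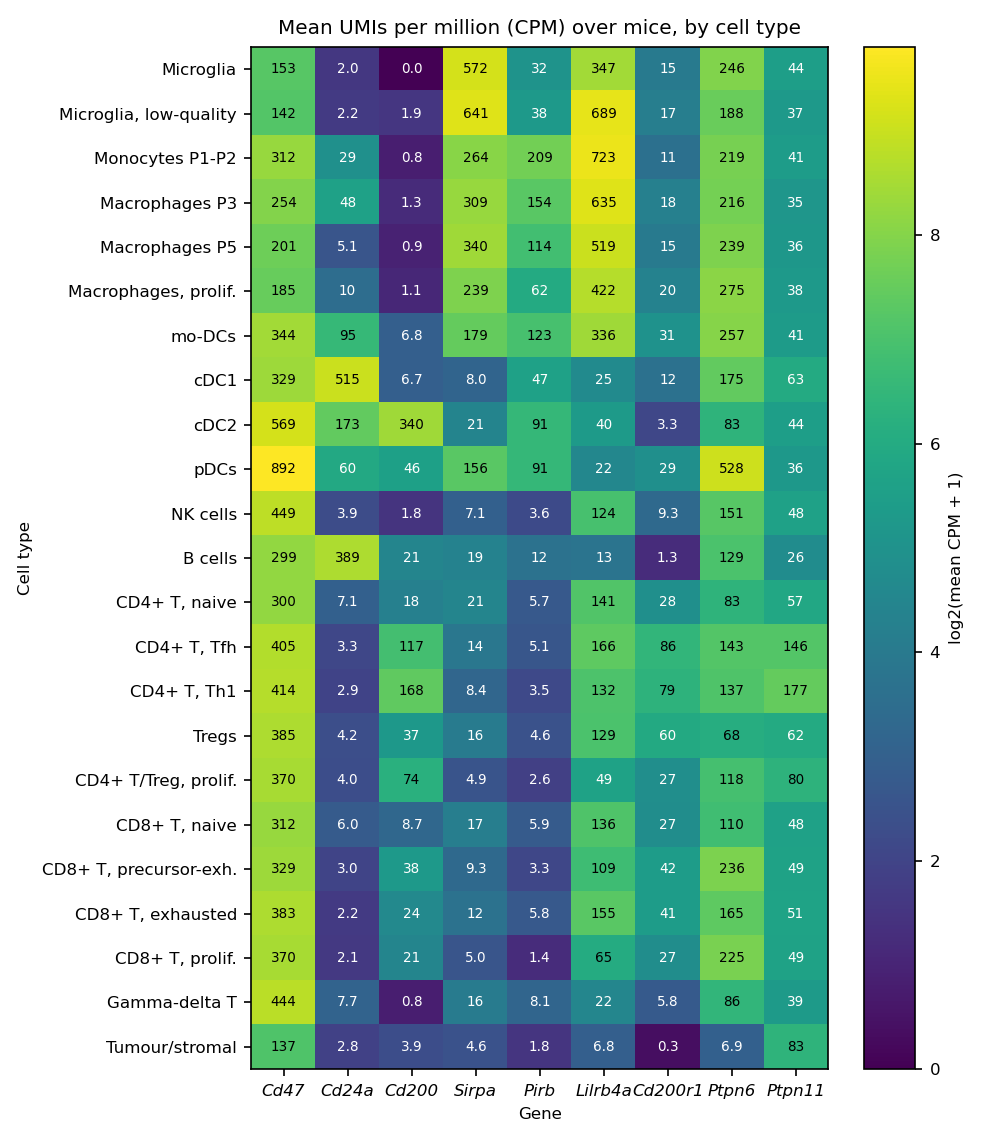
Mean level of the 9 genes in the 23 cell types: rows are cell types, columns are genes (ligands, receptors, phosphatases), numbers are mean CPM over mice and colours are log2(mean CPM + 1). Cd47 was present in every type, Sirpa was highest in microglia, Pirb in monocytes, Cd24a in cDC1 and B cells and Cd200 in cDC2.

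Cd47, the ligand of SIRPα, was detected in every cell type, with a median of 329 CPM over the 23 type means. It was highest in pDCs, at 804, 894 and 968 CPM in the lowest, median and highest mouse (mean 892 ± 48.5, SD, n = 7), and next in cDC2 (569 ± 45.6 CPM, n = 7). All 7 pDC values lay above all 7 cDC2 values, and within each mouse the pDC level was 1.36 to 1.72 times the cDC2 level. The lowest means were those of the CD45 and/or CD11b sorted tumour or stromal cells (137 ± 15.1 CPM, n = 5), low-quality microglia (142 ± 71.6, n = 5) and Microglia (153 ± 18.9, n = 3), whose ranges over mice overlapped. Proliferating macrophages (185 ± 40.5 CPM, n = 6) and macrophages P5 (201 ± 27.0, n = 7) came next from below, and NK cells exceeded macrophages P5 in 7 of 7 mice, by a median of 2.15 times. The cells in which Sirpa was highest were thus among those with the least Cd47. After every cell was thinned to 1500 UMIs, 71.9% of pDCs and 18.0% of tumour or stromal cells had a Cd47 UMI, against 97.6% and 84.4% without thinning, at median depths of 6519 and 20569 UMIs.

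Cd24a was concentrated in cDC1, the cross-presenting dendritic cells, with 480.2, 507, 484 and 507 CPM in KO replicates 1 to 4 and 510.1, 591 and 529 in the WT mice. B cells followed at 389 ± 151 CPM (n = 6) with a wide spread, from 219 to 636, that overlapped cDC1, and cDC2 at 173 ± 64.8 CPM (n = 7). The level in cDC1 exceeded that in cDC2 in 7 of 7 mice, by 1.57 to 5.58 times. In microglia Cd24a was near 0, with a mean of 1.98 CPM under the name Microglia and 1.84% of 163 cells with a UMI, or 0 of 163 after thinning, where the exact (Clopper-Pearson) 95% interval reached 2.24%. Such a limit is on cells with a UMI at that depth and not on cells that use the gene. Thinned shares were 51.1% of cDC1 (unthinned 93.7%) and 0.153% of follicular helper-like CD4 T cells (Tfh, unthinned 1.17%), at median depths of 13792 and 3740 UMIs. In macrophages P3 1 mouse stood apart: KO replicate 1 had 179 CPM where the other 6 mice had 5.30 to 43.4.

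Cd200 was highest in cDC2, where its mean (339.8 ± 79.2 CPM, n = 7) was 2.02 times that of the next type, with ranges that overlapped. The per-mouse values there were 338, 199, 425 and 299 CPM in KO replicates 1 to 4 and 416, 389 and 313 CPM in the WT mice. T helper type 1 cells (Th1, 168 ± 56.4 CPM, n = 6) and Tfh (117 ± 63.3, n = 6) came next, and naive or early activated CD4 T cells were below Tfh in 6 of 6 mice, by 2.60 to 9.61 times. Under the name Microglia no Cd200 UMI was found in 163 cells, and tumour or stromal cells had 3.93 ± 4.62 CPM (n = 5). The thinned share was 33.8% in cDC2 (95% interval 30.8 to 36.9%) and 0.117% in macrophages P5, at median depths of 6439 and 6437 UMIs, and 71.6% and 0.578% without thinning. Binomial and Poisson intervals here cover counting error only.

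Sirpa, the receptor for CD47, was highest in microglia. Low-quality microglia had 639 and 540.1 CPM in KO replicates 1 and 4 and 819, 759 and 448 CPM in the WT mice, and Microglia had 611, 585 and 521 CPM in the WT mice, the only ones with 20 such cells. The ranges of these microglia types overlapped, and all 3 WT values of Microglia lay above all 7 of macrophages P5 (339.6 ± 37.2 CPM). Macrophages P3 (309 ± 44.4 CPM), monocytes P1-P2 (264 ± 35.9), proliferating macrophages (239 ± 38.3), monocyte-derived dendritic cells (mo-DCs, 179 ± 25.7) and pDCs (156 ± 17.6) followed, each overlapping the next. Below them lay a gap, with at most 32.5 CPM in any mouse in the next type, naive CD4 T cells. Within every mouse, mo-DCs had 6.81 to 11.4 times the Sirpa level of cDC2 and 14.0 to 51.2 times that of cDC1. SIRPα is a customary surface marker of type 2 dendritic cells, and the low level in cells named cDC2 (20.6 ± 3.78 CPM, n = 7) stood beside the marker values given above. At 1500 UMIs, 62.6% of Microglia had a Sirpa UMI against 1.13% of cDC1, and 95.1% against 8.37% unthinned, at median depths of 6226 and 13792 UMIs.

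Pirb, an ITIM receptor for MHC class I, followed the monocytes instead. It was at 203, 234, 216 and 189 CPM in KO replicates 1 to 4 and 217, 234 and 171 CPM in the WT mice in monocytes P1-P2 (mean 209 ± 23.2). Macrophages P3 had 154 ± 60.6 CPM, mo-DCs 123 ± 39.8 and macrophages P5 114 ± 33.1 (n = 7 each). Monocytes exceeded macrophages P5 in 7 of 7 mice, by 1.35 to 2.97 times, and macrophages P3 exceeded P5 in 7 of 7, by 1.14 to 1.70 times. Microglia had 32.0 ± 6.70 CPM (n = 3), so the order of the means of monocytes, macrophages P5 and Microglia was the reverse of that of Sirpa.

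Lilrb4a, whose product binds integrins and other ligands, was at 573, 746 and 856 CPM in the lowest, median and highest mouse in monocytes P1-P2 (mean 723 ± 87.4, n = 7). Low-quality microglia had the next mean but the widest spread (689 ± 583 CPM, n = 5), taken up with the genotypes below, and macrophages P3 (635 ± 122 CPM), P5 (519 ± 71.9) and proliferating macrophages (422 ± 58.4) followed. Monocytes exceeded macrophages P5 in 7 of 7 mice, by 1.12 to 1.71 times. Lilrb4a was also read in lymphocytes: alpha-beta T cell types had means of 48.9 to 166 CPM and NK cells 124 ± 26.8 CPM, while B cells had 12.6 ± 11.9 CPM (n = 6) and tumour or stromal cells 6.81 ± 2.37 CPM (n = 5). After thinning, 16.9% of Tfh (95% interval 14.9 to 19.1%) and 11.7% of NK cells had a UMI, against 1.46% of B cells and 0.781% of tumour or stromal cells, which served as background. Unthinned shares were 32.4%, 28.4%, 4.17% and 6.25%, at median depths of 3740, 5126, 7302 and 20569 UMIs. The ratio of Lilrb4a to Sirpa UMIs was 7.00 to 16.4 in alpha-beta T and NK cell types, 1.48 to 2.85 in monocytes and macrophages and 0.937 in B cells. The paralogue Lilr4b, with which reads may be divided, had means of 194 CPM in Tfh and 374 CPM in monocytes, and the part of that division and of free RNA in the lymphocyte values was not tested.

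Cd200r1, the receptor for CD200, had its highest means in Tfh (85.7 ± 20.6 CPM, n = 6), Th1 (78.9 ± 25.7, n = 6) and regulatory T cells (Tregs, 60.5 ± 12.9, n = 6), with ranges that overlapped in turn. Among myeloid cells mo-DCs had the highest mean (31.3 ± 4.43 CPM, n = 7), above macrophages P5 (14.9 ± 5.81) in 7 of 7 mice, and Microglia had 15.5 ± 4.23 CPM (n = 3) from 15 UMIs. Thinned shares were 12.1% of Tfh and 0 of 822 B cells, where the exact 95% interval reached 0.448% at that depth, against 24.4% and 1.07% unthinned. The CD200 ligand and its receptor were thus both highest in T helper cells among the lymphocytes, while cDC2, the highest for Cd200, had 3.28 CPM of Cd200r1.

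Ptpn6, encoding SHP-1, a phosphatase of blood cells, was highest in pDCs, at 548, 372, 548 and 544 CPM in KO replicates 1 to 4 and 608, 579 and 499 CPM in the WT mice. All 7 values lay above every value of the next type, proliferating macrophages (275 ± 60.4 CPM, n = 6). Cells named cDC2 had 82.6 ± 22.5 CPM, and macrophages P5 exceeded them in 7 of 7 mice, by 2.29 to 5.46 times. Within the CD8 T cells, precursor-exhausted cells (236 ± 58.5 CPM) exceeded naive cells in 7 of 7 mice, by a median of 1.96 times, and exhausted cells in 6 of 6, by a median of 1.58 times. Tumour or stromal cells had 6.94 ± 2.83 CPM (n = 5).

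Ptpn11, encoding the ubiquitous phosphatase SHP-2, had means of 34.8 to 62.9 CPM in the myeloid cell types. It was highest in Th1, at 137, 138, 248 and 208 CPM in KO replicates 1 to 4 and 178 and 155 CPM in WT replicates 2 and 3. Tfh followed at 146 ± 39.1 CPM (n = 6) and tumour or stromal cells at 82.9 ± 12.5 CPM (n = 5). Th1 exceeded naive CD4 T cells in 6 of 6 mice, by 2.03 to 4.26 times. Ptpn11 was thus read in tumour or stromal cells, where the Ptpn6 level was the lowest of all types.

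The genes whose mean log2(CPM + 1) over the 23 cell types was most like each member were listed among 13088 genes that reached 10 CPM in at least 1 type. For Sirpa they were Cebpa (Pearson r = 0.970), a myeloid transcription factor, the Siglec gene Cd33 and Trf. For Pirb they were Ptafr (0.964), Gpr35 and Csf2rb, for Cd24a the class II genes H2-Eb2 (0.874) and H2-DMb2 with Siglecg, and for Lilrb4a its neighbours Lilr4b (0.938) and Gm49339 with Xdh. Cd47 was most like Sub1 (0.890), Lsp1 and Cirbp, Cd200 like 6720464F23Rik (0.898), Gm38126 and Zfp688, and Cd200r1 like Itgb2 (0.855), Matk and Pstpip1. Ptpn6 was most like Vav1 (0.861), Laptm5 and Tfeb, and Penk (0.872) and Dclk1 were among the 3 genes most like Ptpn11. Between members, the highest correlation was that of Sirpa and Pirb (0.810), while Sirpa and Cd47 had -0.39. These are descriptions over 23 points that share libraries and depths.

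The comparison of genotypes asked whether these checkpoints changed in microglia, the target of the driver, or in the cells around them. UMIs were summed per mouse and cell type and fitted in edgeR (quasi-likelihood test, Benjamini-Hochberg adjustment over all genes of a cell type, called at an adjusted p under 0.05). Of 23 cell types 21 could be fitted. The exceptions were Microglia, with no KO mouse of 20 cells, and gamma-delta T cells. The 9 genes gave 141 tests, of which 1 was called, where 0.0166% of all 168923 gene tests were called. DESeq2 called the same 1 of 137 tests, where it called 0.0955% of all gene tests. At an unadjusted p under 0.05 in edgeR were 19 of the 141 tests (background 5.44%), 15 lower in KO (background 2.77%) and 4 higher (2.67%). In DESeq2 14 of 137 were, and the share over all genes was not computed for it. KO and WT did not overlap in 13 lower (4.85%) and 3 higher tests (5.63%). The fold change was below 0 in 88 of 141 tests, where 49.2% of all gene tests were. With cell types joined into 9 classes, 0 of 62 member tests were called by edgeR (background 0.0111%). The same mice enter every cell type, so these tests are not independent of each other.

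**Figure D2:**
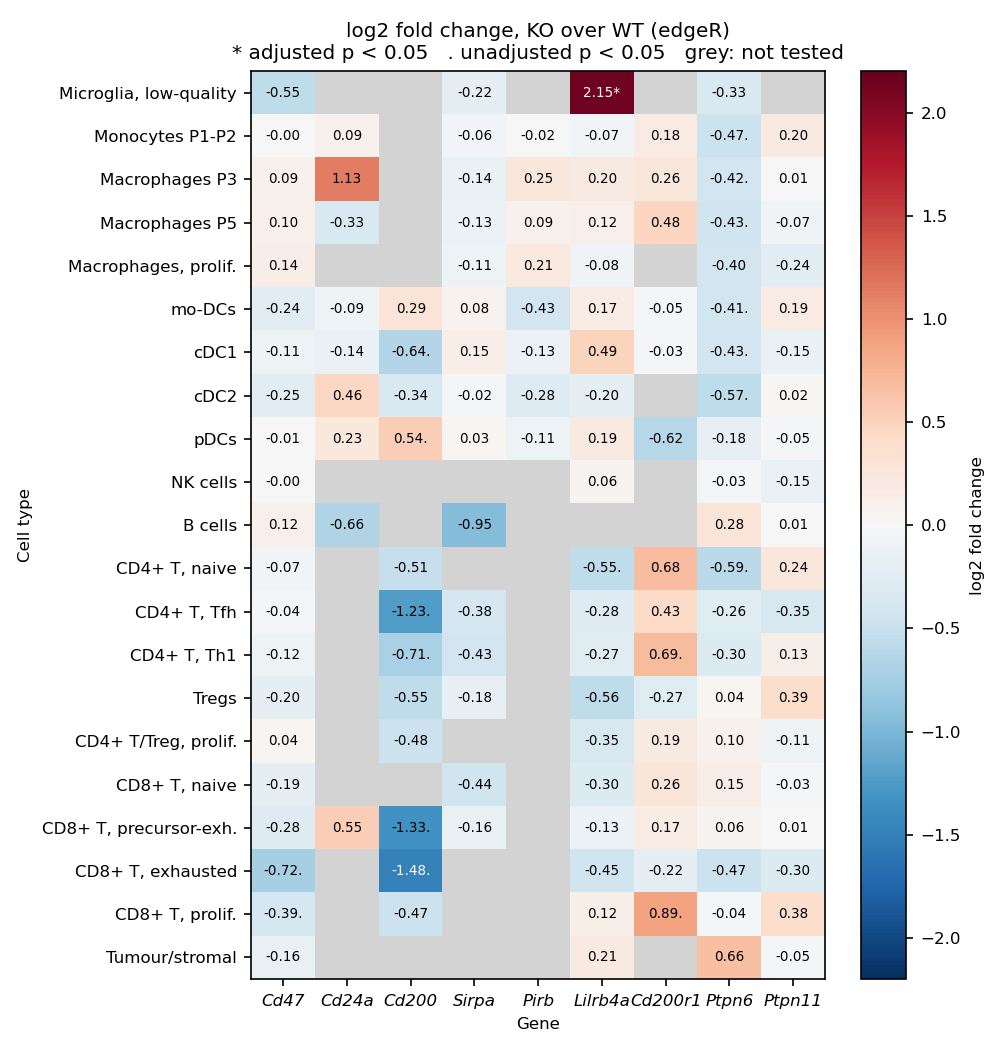
Log2 fold changes of the 9 genes, KO over WT, in the 21 fitted cell types (edgeR); red is higher in KO, blue lower, grey not tested, a star marks an adjusted p under 0.05 and a dot an unadjusted p under 0.05. Lilrb4a in low-quality microglia (2.15) is the only starred cell, and the dots gather in the Cd200 and Ptpn6 columns.

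Lilrb4a rose in low-quality microglia of KO mice. The fitted mice had 1562 and 1023 CPM in KO replicates 1 and 4 and 309.6, 314 and 239 CPM in WT replicates 1 to 3, from 20, 34, 69, 44 and 57 cells. Log2 KO over WT came to 2.15 (SE 0.31, edgeR adjusted p = 3.27e-06), 1 of 5 called among 2350 genes in this cell type (0.213%), the others being Cdkn1a (1.92), Fkbp5 (1.51) and Jdp2 (2.08), which rose, and P2ry12 (-1.59), a marker of homeostatic microglia, which fell. The KO mice left out for having fewer than 20 cells, replicates 2 (14 cells) and 3 (13 cells), had 489 and 459 CPM, above all WT mice but below the other KO mice. In this cell type 13% of genes were higher in both fitted KO mice than in all WT mice. With all 4 KO mice in the fit the log2 fold change was 1.67 (SE 0.34, edgeR adjusted p = 0.0354). Leaving out 1 mouse at a time gave 1.80 to 2.42, called each time, though without KO replicate 1 or 4 a single KO mouse stood for the group and was assumed to vary like the rest.

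Under the other microglia name the pattern was less clear. Microglia had 993, 198 and 485 CPM of Lilrb4a in KO replicates 1, 2 and 4, from 10, 7 and 15 cells, and 438, 243 and 361 CPM in the WT mice, so KO replicate 2 was below all of them. With at least 10 cells per mouse, 2 KO against 3 WT mice, the log2 fold change was 1.18 (SE 0.31, edgeR adjusted p = 0.246). With both microglia names joined the levels were 1212, 336, 459 and 729 CPM in KO and 395, 261 and 328 CPM in WT. KO replicate 2 then lay between WT values, and the joined fold change of 1.26 was not called (3 KO mice, edgeR adjusted p = 0.141, background 0.0415% called), nor was that with all 4 KO mice (1.06, edgeR adjusted p = 0.293).

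Single cells held a sizeable part of the Lilrb4a UMIs in both genotypes. In low-quality microglia 1 cell held 32.9%, 42.3%, 35.3% and 22.6% of the Lilrb4a UMIs of KO replicates 1 to 4 and 19.1%, 24.8% and 53.1% of those of the WT mice. Without that cell in each mouse the levels were 1145, 299.9, 327 and 817 CPM in KO and 254, 241 and 114 CPM in WT, still without overlap. Thinned to 1500 UMIs, 55.0%, 33.3%, 23.1% and 50.0% of the KO cells had a Lilrb4a UMI (20, 9, 13 and 28 cells) against 17.9%, 13.2% and 11.4% of the WT cells (67, 38 and 35). Unthinned shares were 75.0%, 50.0%, 46.2% and 52.9% against 33.3%, 25% and 21.1%. The paralogue Lilr4b did not share the pattern, with 125, 13.8, 27.1 and 112 CPM in KO and 72.7, 128 and 127 CPM in WT, and with both genes summed the log2 fold change was 1.81 (edgeR adjusted p = 2.07e-04). That sum did not take in the overlapping gene Gm49339, and a division of reads with it was not tested.

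Several properties of these cells were read beside the result. The 8 monocyte and macrophage markers, in which Lilrb4a is otherwise highest, summed to 163 to 455 CPM in the KO mice and 315 to 385 CPM in the WT mice; KO replicates 1 and 4, with the most Lilrb4a, had 201 and 282. The 8 markers did not move together. Ly6c2 was at 0 to 73.6 CPM in KO and 68.2 to 126 in WT, Plac8 at 0 to 27.1 and 9.73 to 39.0, Chil3 at 0 to 41.4 and 9.73 to 102, and Vcan at 0 in all 4 KO mice and in WT replicate 2. Itga4 was higher in KO replicates 2 to 4 (82.7, 81.3 and 110.5 CPM, and 0 in replicate 1) than in WT (19.5 to 39.0). Ccr2 was at 0, 165, 0 and 12.3 CPM in KO and 9.74 to 37.7 in WT, Arg1 at 69.4, 124, 0 and 12.3 in KO and 0 to 68.2 in WT, and Ms4a7 at 111, 41.4, 27.1 and 49.1 in KO and 39.0 to 107 in WT. The 5 T cell markers summed to 41.7 to 165 CPM in KO and 21.5 to 48.6 in WT, border-associated macrophage markers to 12.3 to 97.2 and 16.2 to 58.5, and neutrophil markers to 0 in all 4 KO mice and to 0, 0 and 48.7 in the WT mice. Microglia markers summed to 2812 to 5474 CPM in KO and 4550 to 6317 in WT. Median depths were 1708 to 3601 and 1612 to 2550 UMIs, and mitochondrial UMIs 3.74 to 4.62% and 4.33 to 5.62%. The thinned shares hold depth fixed for the share of cells with a UMI only, not for the CPM or the fold change. They leave out 11 KO and 30 WT cells of lower depth. The part of any of these properties in the result was not tested.

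**Figure D3:**
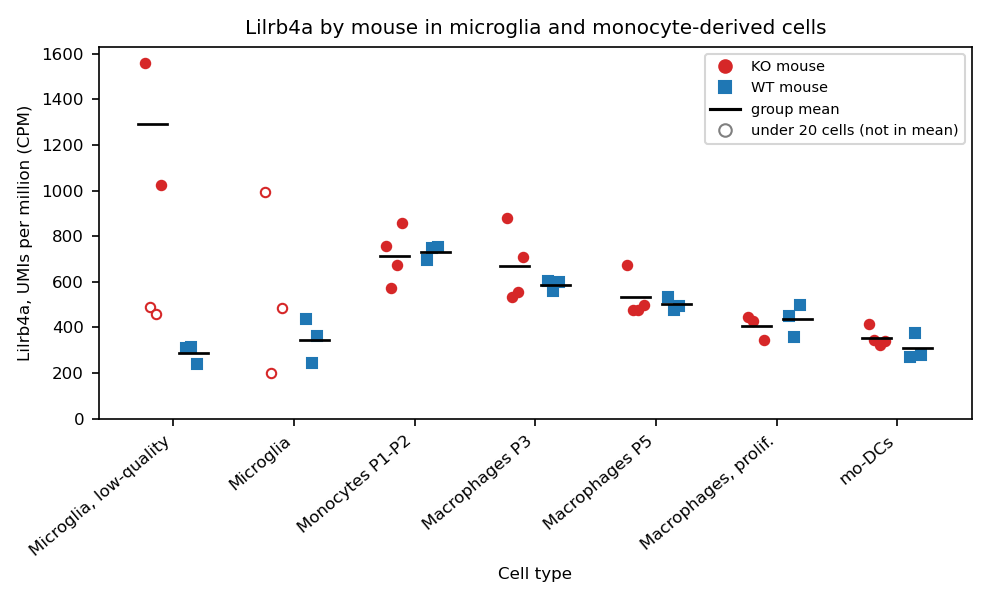
Lilrb4a in each mouse (CPM, vertical axis) in 7 microglia, monocyte-derived and mo-DC cell types; circles are KO mice, squares WT mice, bars the mean of mice with at least 20 cells and open symbols mice with fewer. In low-quality microglia all 4 KO mice sit between 459 and 1562 CPM, above the WT mice at 239 to 314, while the groups overlap in the other 6 types.

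In monocytes and macrophages Lilrb4a showed no such difference between the groups. Monocytes P1-P2 had 757, 573, 674 and 856 CPM in KO and 698, 746 and 753 CPM in WT, a log2 fold change of -0.07 (SE 0.17, edgeR adjusted p = 0.979). KO replicates 1 and 4, the KO mice fitted in low-quality microglia, were above all WT mice there. In macrophages P3 they were so too, with 879 and 711 CPM against 604, 561 and 599 CPM in WT. KO replicates 2 and 3 were below all WT mice in both types. In macrophages P5 only KO replicate 1 was above all WT mice. Whether the genotype difference was larger in microglia (both names joined) than in monocyte-derived cells was tested by an interaction with 1 term per mouse, in 3 KO and 3 WT mice. No member was called (0 of 8, background 0.523%) and 3 had an unadjusted p under 0.05 (background 10.7%). For Lilrb4a the interaction was 0.86 (SE 0.27, edgeR adjusted p = 0.115). It was called in 1 alternative of 12, without KO replicate 2, at 1.20 (edgeR adjusted p = 0.00213). That fit kept only KO replicates 1 and 4, the KO mice with the most Lilrb4a in microglia, and its share of all genes called is not given. The interaction was 0.52 without KO replicate 1. Over all 12 it ran from 0.52 to 1.28, with edgeR adjusted p from 0.00213 to 0.716. The others were Cd200r1 (-2.08, edgeR adjusted p = 0.294), with 1 and 2 UMIs in the microglia of KO replicates 1 and 4 and 0 in those of replicates 2 and 3, and Cd47 (-0.62, edgeR adjusted p = 0.456).

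Ptpn6 was below its WT level in each of the 9 fitted myeloid cell types, with a median log2 fold change of -0.42 (range -0.57 to -0.18). In 4.83% of 1924 genes tested in all 9 types the sign was negative in all 9. None of the 9 tests was called, and 6 had an unadjusted p under 0.05 (background for lower genes 3.49%). In macrophages P5 the values were 222, 194, 211 and 198 CPM in KO and 314, 263 and 271 CPM in WT, without overlap (log2 fold change -0.43, SE 0.13, edgeR adjusted p = 0.678). Monocytes P1-P2 had 237, 172, 191 and 168 CPM in KO and 263, 241 and 263 in WT (-0.47, SE 0.17, edgeR adjusted p = 0.660). In cDC2 the values were 40.6, 82.7, 68.2 and 86.2 CPM in KO and 106, 91.5 and 103 in WT (-0.57, SE 0.21, edgeR adjusted p = 0.421). All 4 KO mice were below all 3 WT mice in each of these 3 types. Macrophages P3, mo-DCs and cDC1 overlapped in 1 or more mice, at -0.42, -0.41 and -0.43, and pDCs differed least (-0.18, SE 0.15, edgeR adjusted p = 0.949). Over 14 alternative fits the pDC value ran from -0.24 to -0.07. Low-quality microglia had 153 and 172 CPM in the fitted KO mice and 178, 204 and 234 CPM in WT (-0.33, SE 0.39, edgeR adjusted p = 0.934), but of the KO mice with fewer than 20 cells replicate 3 had 217 CPM, above WT replicates 1 and 2, and replicate 2 had 41.4. Under the name Microglia, KO replicates 1, 2 and 4 had 236, 372 and 284 CPM, not below the 235 to 255 CPM of the WT mice. In NK cells Ptpn6 was at -0.03 and over 9 T cell types the median was -0.04. Naive CD4 T cells were the 1 T cell type with an unadjusted p under 0.05, with 75.8, 88.9, 69.8 and 41.5 CPM in KO and 109, 100.4 and 96.7 in WT (-0.59, SE 0.26, edgeR adjusted p = 0.936, and -0.37 without KO replicate 4). Ptpn6 overlaps the antisense gene Gm20531, which had 551 UMIs beside 41127 of Ptpn6. Ptpn11 overlaps Gm42930, a gene on the same strand as Ptpn11, whose UMIs are not given here.

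**Figure D4:**
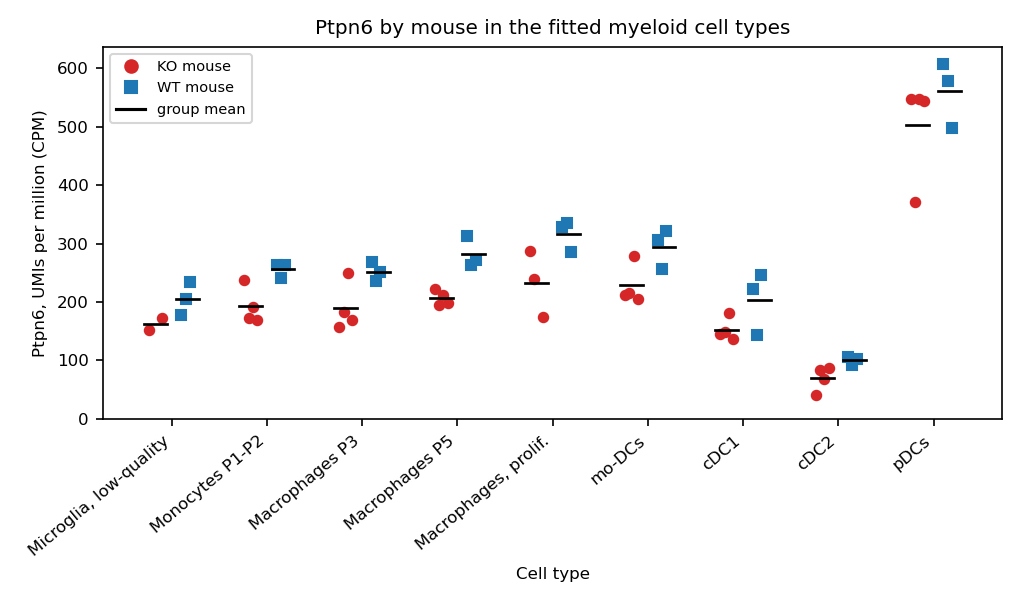
Ptpn6 in each mouse (CPM, vertical axis) in the 9 fitted myeloid cell types; circles are KO mice, squares WT mice and bars group means over mice with at least 20 cells. KO means lie below WT means in all 9 types, the groups do not overlap in macrophages P5, monocytes P1-P2, cDC2 and low-quality microglia (2 KO mice), and no type passed the adjusted threshold.

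Ptpn11, the other phosphatase, did not share this: it was below WT in 4 of 8 myeloid types tested (median log2 fold change -0.02) and in 4 of 9 T cell types (0.01), and none of its 20 tests had an unadjusted p under 0.05. In Th1, its highest type, the fold change was 0.13 (SE 0.22, edgeR adjusted p = 1.00). Sirpa was at -0.22 in low-quality microglia (SE 0.31, edgeR adjusted p = 0.964) and Pirb at -0.02 in monocytes (SE 0.17, edgeR adjusted p = 0.998). For these receptors no test had an unadjusted p under 0.05, in 15 and 8 cell types.

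Cd200 was below WT in all 8 T cell types in which it was tested, with a median log2 fold change of -0.63, and 4 of the 8 had an unadjusted p under 0.05 (background for lower genes in T cells 2.02%, and 48.8% of gene tests there were below 0). The share of genes below 0 in all 8 is not given. The same mice enter these types, most of them with only WT replicates 2 and 3 as controls. WT replicate 2 lay within the KO range in Tregs (31.7 CPM) and exhausted CD8 T cells (26.9), though not in Tfh and Th1. Tfh had 104, 84.0, 73.6 and 64.2 CPM in KO replicates 1 to 4 and 146 and 232 CPM in WT replicates 2 and 3 (-1.23, SE 0.24, edgeR adjusted p = 0.450). Th1 had 145, 174, 121 and 117 CPM in KO and 184 and 269.8 CPM in WT (-0.71, SE 0.21, edgeR adjusted p = 1.00), and -0.38 without WT replicate 3. All 4 KO mice lay below both WT mice in each, and WT replicate 1 had too few of these cells to enter (18 and 8). Precursor-exhausted CD8 T cells, in which all 7 mice entered, had 19.9, 32.3, 18.6 and 16.1 CPM in KO and 89.9, 28.6 and 63.3 in WT, with KO replicate 2 above WT replicate 2 (-1.33, SE 0.35, edgeR adjusted p = 1.00). In exhausted CD8 T cells the fold change was -1.48 with overlap (SE 0.51, edgeR adjusted p = 0.881). No T cell test was called here. The Tfh difference was called in 3 of 14 alternatives, over which it ran from -1.55 to -0.83. It was called with no filter on low counts (-1.21, edgeR adjusted p = 2.62e-05), where 0.291% of all gene tests were called. With the sex of the mice as a term it was called too (-1.20, edgeR adjusted p = 0.0482, 0.0189% of all gene tests). The third was 1 further alternative given in the closing section.

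Of the 4 dendritic cell types tested, Cd200 was below WT in cDC1 and cDC2 and above it in pDCs and mo-DCs. In cDC2, its highest type, the groups overlapped (-0.34, SE 0.22, edgeR adjusted p = 0.645, and -0.16 without KO replicate 2). It was lower in cDC1 (-0.64, SE 0.27, edgeR adjusted p = 0.825, and -0.37 without WT replicate 3), at 4.85 to 6.68 CPM in KO and 6.72 to 11.2 in WT. Cd200 in cDC1 rested on few UMIs, 8 to 28 per KO mouse and 27 to 54 per WT mouse. After thinning 0.916% of cDC1 had a UMI, so the level was near the floor. In pDCs it was higher, at 61.4, 55.5, 47.9 and 54.8 CPM in KO and 37.2, 45.6 and 21.0 CPM in WT, without overlap (0.54, SE 0.26, edgeR adjusted p = 0.775). Its receptor Cd200r1 was higher in Th1, at 99.9, 116, 76.3 and 70.5 CPM in KO and 67.7 and 43.0 in WT (0.69, SE 0.26, edgeR adjusted p = 1.00, and 0.43 without WT replicate 3). In Tfh it was at 0.43 with overlap (SE 0.24, edgeR adjusted p = 1.00), at 0.78 without WT replicate 2 and at 0.18 without WT replicate 3.

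Cd47 differed most in exhausted CD8 T cells, with 281, 351, 316 and 320.2 CPM in KO and 531 and 497 CPM in WT replicates 2 and 3, without overlap (-0.72, SE 0.17, edgeR adjusted p = 0.587). WT replicate 1, left out with 9 cells, had 352 CPM, level with KO replicate 2. With all T cells joined Cd47 was at -0.26 (SE 0.15), with overlap. Proliferating CD8 T cells had 369, 362, 309.6 and 318 CPM in KO and 377 and 483 in WT (-0.39, SE 0.17, edgeR adjusted p = 1.00), and -0.15 without WT replicate 3. In pDCs, its highest type, Cd47 was at -0.01 (SE 0.12, edgeR adjusted p = 1.00), and in tumour or stromal cells at -0.16 (SE 0.16, edgeR adjusted p = 0.828). Cd24a was at -0.14 in cDC1 (SE 0.10, edgeR adjusted p = 0.881), where 480.2 to 507 CPM in KO lay just below 510.1 to 591 in WT. Lilrb4a in naive CD4 T cells was at 70.3, 102, 137 and 142 CPM in KO and 176, 171 and 192 CPM in WT, without overlap (-0.55, SE 0.22, edgeR adjusted p = 0.935), a direction opposite to that in low-quality microglia. With all T cells joined Lilrb4a was at -0.08 (SE 0.20), with overlap.

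**Figure D5:**
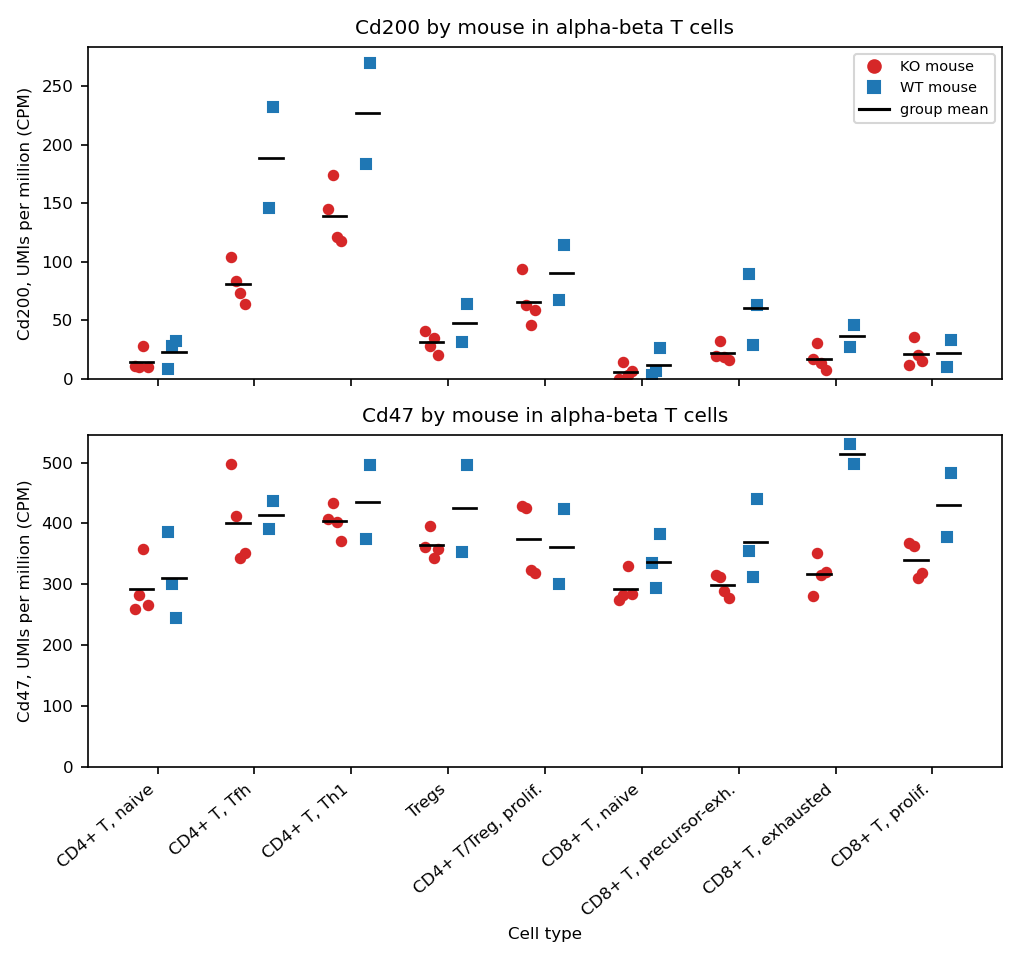
Cd200 (top) and Cd47 (bottom) in each mouse, in CPM, in 9 alpha-beta T cell types; circles are KO mice, squares WT mice and bars group means over mice with at least 20 cells. Among mice with at least 20 cells, KO lies below WT without overlap for Cd200 in Tfh and Th1 and for Cd47 in exhausted and proliferating CD8 T cells, and none passed the adjusted threshold.

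Other genes of the same pathways were read from lists. None of 54 such genes was called by edgeR, in 744 tests, and none of 53 by DESeq2, in 722 tests. Of all gene tests 0.0166% were called by edgeR and 0.0955% by DESeq2. At an unadjusted p under 0.05 were 23 tests higher (background 2.67%) and 27 lower (background 2.77%) in edgeR, and the median log2 fold change was -0.04 against 0.01 over all genes. In DESeq2 36 of 722 tests were, with no share over all genes computed. CD47-SIRPα partners had 7 higher and 5 lower of 184 tests, CD200 receptor relatives and Dok adaptors 2 and 4 of 60, and other ITIM receptors 8 and 6 of 171. Src family kinases had 1 higher and 3 lower of 68 tests, further phosphatases 3 and 2 of 75, activating partners 1 and 6 of 86, and ligands 1 and 1 of 100. The highest gene of each list in microglia was Apoe (7361 CPM) among ligands, Tyrobp (2215), the adaptor of activating receptors, Lyn (660), the main ITIM kinase of myeloid cells, Lair1 (594), an ITIM receptor for collagen, Fyb (555), an adaptor, Ptprc (506), which encodes CD45, and Rasa1 (68.9). In monocyte-derived cells these were Apoe (15921), Fcer1g (3369), Fcgr2b (1016), the inhibitory Fc receptor, Thbs1 (891), a CD47 ligand, Lyn (397), Ptprc (337) and Dok1 (36.1).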

How the data were processed

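Per the labels, live CD45 and/or CD11b positive cells of 7 mice were profiled with 10x 5' chemistry; per the submitters' processing notes FastQC 0.11.5, STAR 2.7.10a with STARsolo and build mm10 were used, and the annotation, the strand setting, the treatment of multimapping reads and of doublets are not given in the sources used here. The authors deposited unscaled UMIs, expected counts of which 7.51% of non-zero values were not whole. The authors' cell table gave counts of detected genes, mitochondrial percent and the cell type names used here. Mice are the replicates, taken as separate animals from the labels, and p-values measure the spread between these libraries.

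UMIs were summed per mouse and cell type (at least 20 cells, at least 2 mice per genotype), rounded, and fitted in edgeR 4.0.16 (R 4.3.3; TMM, filterByExpr, robust quasi-likelihood, genotype only, two-sided). DESeq2 1.42.0 was an alternative. The method was laid out for whole counts, and the sums were rounded once values that are not whole were seen. Fits were tested on simulated data with 200 changed genes, for macrophages P5, monocytes P1-P2 and cDC1 only. Low-quality microglia, with fewer mice and cells, were not simulated. The sex term, female for KO replicates 1 and 2 and for WT replicate 3, was read from Xist and Y-linked genes. Thinning to 1500 UMIs left out shallower cells. Positions and codons came from GENCODE M21.

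Each member is named with its test in its highest tested cell type and wherever it was called or had an unadjusted p under 0.05 without overlap of the groups; the precursor-exhausted T cell values, the tumour or stromal cell values and further examples were chosen after their values were seen. Likeness neighbours are the 3 genes of highest Pearson correlation, of which 1 for Ptpn11 is not reported here. The members and lists were chosen with earlier results of these data known. Sirpg, Lilrb4b, Pira6 and Pira12 of the lists had no row under those symbols.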

Additional observations from a re-analysis of the deposited data

Results flagged for a closer look

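In pDCs, KO replicate 2 had 372 CPM of Ptpn6, far below KO replicates 1, 3 and 4 at 548, 548 and 544 CPM. Its gap to the nearest of these was 0.981 of the range of the 4 mice. It was the only one of 29 groups tested in which the lowest or highest mouse lay so far from the others, where chance sets apart about 1 group in 20.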

How the results depend on the processing

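Of the 141 member tests, 1 was called in the fit as reported. The count was 4 of 189 with no filter on low counts, where Cd200 in Tfh, Th1 and precursor-exhausted CD8 T cells joined Lilrb4a in low-quality microglia and 0.291% of all tests were called. It was 2 of 141 with a sex term (0.0189% of all tests) and 0 of 62 with cell types joined into 9 classes. With the replicate numbers as a replicate block it was 2 of 133 (0.2% of all tests): Cd200 in Tfh (-1.25, adjusted p = 0.0288) and Lilrb4a in Tregs (-1.36, adjusted p = 0.0441), and the low-quality microglia could not be fitted. The labels do not say whether same-numbered mice were handled together. Their deviations from the group means correlated by -0.21 to 0.13, which cannot settle this with so few mice. Without WT replicate 1 the count was 1, where 0.00886% of the refitted gene tests were called. KO replicate 3 did not enter the low-quality microglia, so without it that call was carried over unchanged. None of the member tests refitted without it was called (0.013% of the refitted gene tests). Leaving out any other mouse left 1 mouse of a genotype in some cell types, and no count is given for those fits. The interaction count was 0 to 1 without 1 mouse. In the fit as reported 0.523% of all genes were called, and the shares in the fits without 1 mouse are not given.

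Lilrb4a in low-quality microglia kept its call in 12 of 13 alternatives and lost it with the joined classes (1.26). Among the named tests, signs turned for Sirpa in low-quality microglia with at least 10 cells (0.026), Cd47 in pDCs with a sex term (0.0080) and without 1 mouse (-0.037 to 0.027), Pirb in monocytes with the block (0.025), a sex term (0.0032), joined classes (0.12) and without 1 mouse (-0.14 to 0.091), Lilrb4a in monocytes with joined classes (0.094) and without 1 mouse (-0.18 to 0.030), Ptpn11 in Th1 with joined classes (-0.11) and without 1 mouse (-0.022 to 0.24), and Ptpn6 in naive CD4 T cells with all T cells joined (0.21). The causes were not tested. All 86 recomputed highest levels moved by less than 1 SD. Leaving out 1 mouse cannot move a mean by 1 SD of the same mice, so for those fits this tests nothing. The 13 to 69 low-quality microglia per mouse limit every microglia value.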
